A study of Mus musculus with 13 samples.

Results

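The comparison described here set KLS cells of 6-week-old mCG-PR mice against KLS cells of older wild-type mice, on 7 of the 13 arrays of the series. mCG-PR mice carry PML-RARA, the fusion protein of acute promyelocytic leukaemia, at the murine Ctsg locus, so that the fusion is driven by the regulatory sequence of cathepsin G, a serine protease of early granulocytes. KLS cells are Kit-positive, lineage-negative, Sca1-positive bone marrow cells, a mixture of stem cells and multipotent progenitors. The arrays were chosen by their titles alone: 3 from mCG-PR mice of 6 weeks (genotype label mCG-PR N17) and 4 from wild-type (WT) mice, of which replicates 1 and 2 were 13 weeks old and replicates 3 and 4 were 12 weeks old. All mice were Bl/6 Taconic, the controls were littermates, and each array held flow-sorted RNA of an individual mouse. The mCG-PR mice were 6 to 7 weeks younger than the controls, so age and genotype cannot be told apart within these 7 arrays. WT replicates 1 and 2 also carry description numbers that stand apart from those of all the remaining arrays, and the labels do not say why, so wherever the 13-week and 12-week controls are split below, age and whatever that numbering stands for cannot be told apart. KLS arrays of mCG-PR mice of 13 weeks (n = 2) are given beside them where a value bears on age.

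In a healthy marrow, the KLS compartment runs from quiescent long-term stem cells to dividing multipotent progenitors, and within it some cells already transcribe low levels of lymphoid, myeloid or dendritic genes, a state called lineage priming. PML-RARA joins the retinoic acid receptor alpha to the PML protein, binds retinoic acid receptor sites and recruits corepressors, and blocks maturation at the promyelocyte stage in patients. The question set by the design was what this fusion does in cells upstream of the promyelocyte. In sorted bulk RNA, more cells of a type and more RNA per cell cannot be told apart.

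A gene's value was the median log2 intensity of its probe sets, and 10584 genes were tested. Array medians of the deposited intensity ran from 103.7 to 115.3. The median SD of a gene was 0.199 (log2) among the mCG-PR arrays and 0.204 among the WT arrays, and correlations across genes were 0.953 to 0.96 within mCG-PR, 0.95 to 0.966 within WT and 0.939 to 0.959 between them. All genes together lay 0.114 (log2) higher in mCG-PR cells. Unless stated otherwise, differences below are mCG-PR minus WT on the log2 scale, relative to that shift, and values after ± are limma standard errors. The adjusted p-values are Benjamini-Hochberg values from limma for the unshifted difference.

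The gate genes of KLS cells were present in both groups. Kit was 9.95, 10.00 and 10.32 on the mCG-PR arrays and 10.01 to 10.26 on the WT arrays and Ly6a (Sca1) 8.67 to 9.44 against 9.10 to 9.89. Genes of mature lineages that the gate should lack were mixed. Ms4a1 (B cells), Cd3g, Cd4 and Cd8a (T cells), Adgre1 (macrophages) and Cdh5 (endothelium) had mean levels too low to be tested, while the T cell gene Cd3e (means 6.57 in mCG-PR and 6.59 in WT cells) and the B cell gene Cd79a (6.22 and 6.46) were just above the threshold. Of the longer lists, 11 of 16 measured B cell genes, 20 of 29 T and NK cell genes, 21 of 28 monocyte and macrophage genes and 14 of 22 stroma and endothelium genes were high enough to be tested. So were all 22 measured late neutrophil genes, 22 of 26 erythroid genes and 16 of 21 megakaryocyte genes. These included Itgam, Ltf and Camp (neutrophil), Klf1 and Epor (erythroid) and Pf4 and Ppbp (megakaryocyte). The threshold let through 10584 of all 15121 measured genes, and the list counts are to be read beside that share. mCG-PR replicate 3 stood apart in its Y-linked genes: Eif2s3y was 4.18 and Kdm5d 4.88 there, against 7.57 to 9.0 for both genes on every one of the 6 remaining arrays. Sex is not stated in the labels, and the values without that array stand beside the leading genes and close the account of the gene lists.

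How far the fusion transcript reaches the mouse probe sets of Pml and Rara was not tested. None of the genes of its locus and its mouse partners passed. Ctsg was 8.23, 9.54 and 8.60 on the mCG-PR arrays and 8.10, 8.27, 9.32 and 8.33 on the WT arrays, so the groups overlapped (0.17 ± 0.37, limma adjusted p = 0.906). Without mCG-PR replicate 2 the Ctsg difference was -0.18. Pml differed by 0.20 ± 0.22 and Rara by 0.21 ± 0.22. By probe set (unshifted), 14 of 17 for Pml and 11 of 13 for Rara had a higher mean in mCG-PR cells, of which 3 and 2 had all mCG-PR arrays above all WT arrays, and none had them all below. The median probe set differences were 0.27 for Pml and 0.24 for Rara, also unshifted, where all genes lay 0.114 higher. No share over all probe sets stands beside these counts.

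Siglech, a surface receptor of plasmacytoid dendritic cells and of their precursors, rose in the young mCG-PR cells and was the only gene that passed. Its level was 7.74, 7.62 and 8.11 (log2) in mCG-PR cells and 5.96, 6.21, 6.55 and 6.11 in WT cells. The lowest mCG-PR array lay above the highest WT array by more than the SD of 0.25 within either group. The unshifted change was 1.61 ± 0.19, 3.06-fold (limma adjusted p = 0.0118), and 1.5 relative to the shift of all genes. One call in 10584 genes is 0.00945% of those tested; 704 genes (6.65%) had an unadjusted p under 0.05, and 616 (5.82%) of them were higher and 88 (0.831%) lower. With array medians subtracted that split was 216 (2.04%) higher and 278 (2.63%) lower, with Siglech still the only call (limma adjusted p = 0.0454).

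All 8 Siglech probe sets had a higher mean in mCG-PR cells, by 0.29 to 2.59 (unshifted), and on 5 of them every mCG-PR array lay above every WT array. The largest difference was on a probe set with 8.48, 9.31 and 8.40 against 5.75, 5.87, 6.51 and 6.44. The groups overlapped on 3 probe sets, among them the 2 with the lowest WT means, 4.63 and 5.29. The signal was therefore spread over most of the gene's probe sets and did not come from a single one.

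**Figure D1:**
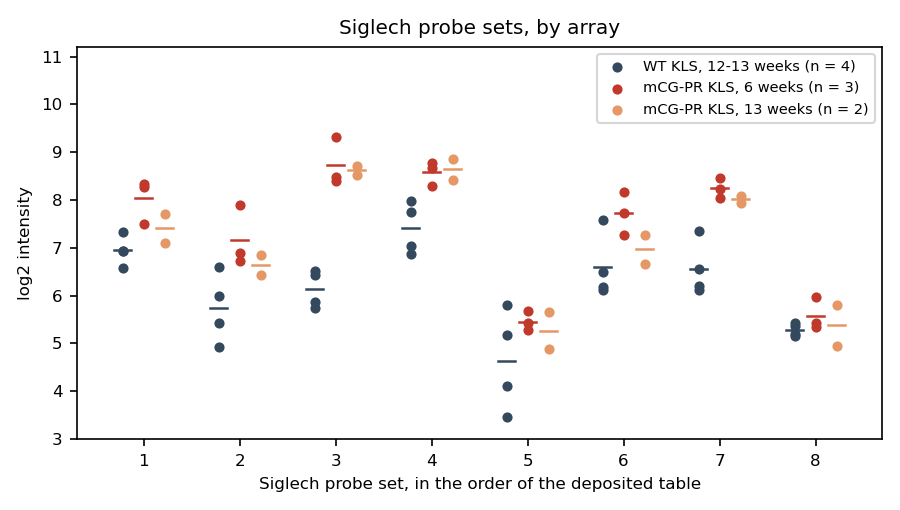
Log2 intensity (vertical axis) of the 8 Siglech probe sets (horizontal axis, in table order) on each array of WT KLS (dark), mCG-PR KLS of 6 weeks (red) and mCG-PR KLS of 13 weeks (orange); short lines are group means. On 5 of the 8 probe sets all 3 red points lie above all 4 dark points.

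The Siglech call was sensitive to single arrays and to the controls. It was lost with the 12-week WT arrays as the only controls (adjusted p = 0.741), and passed in 2 of the 7 fits that left out an array of the comparison, with adjusted p between 0.00671 and 0.15; without mCG-PR replicate 3 it was 0.15. With the 13-week controls alone its adjusted p was 0.0626, and with the mean of probe sets 0.13. The difference itself lay between 1.17 and 1.62 under every one of the 18 alternatives run. In mCG-PR KLS cells of 13 weeks Siglech was 7.19 and 7.18, between the young mCG-PR arrays and the WT arrays; the difference from 6 weeks was -0.57 ± 0.23 and did not pass (limma adjusted p = 0.779).

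The promoters of the leading gene in each direction, Siglech and the retinaldehyde dehydrogenase gene Aldh1a1, are shown because the 2 genes head the comparison. They are RefSeq sequences of build GRCm38.p6, plus strand, the 250 bases before the annotated start, at chr7:55767934-55768183 and chr19:20601718-20601967. Capitals mark the E-box CAGGTG, read here as its reverse complement CACCTG, a site type bound by E proteins such as Tcf4, the plasmacytoid dendritic cell factor.
Siglech: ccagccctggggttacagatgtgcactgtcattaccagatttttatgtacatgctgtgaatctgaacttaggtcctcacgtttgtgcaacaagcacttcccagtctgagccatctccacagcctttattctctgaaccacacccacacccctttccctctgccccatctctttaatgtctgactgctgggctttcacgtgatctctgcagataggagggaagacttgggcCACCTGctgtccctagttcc
Aldh1a1: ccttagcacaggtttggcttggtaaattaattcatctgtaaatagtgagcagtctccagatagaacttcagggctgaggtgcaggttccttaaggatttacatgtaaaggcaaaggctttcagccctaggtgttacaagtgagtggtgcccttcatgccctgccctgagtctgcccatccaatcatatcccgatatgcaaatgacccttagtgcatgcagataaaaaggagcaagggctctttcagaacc

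In the Siglech promoter the CAGGTG match begins 20 bases before the start. Other E-box sequences were not searched. Aldh1a1 has 2 annotated windows, of which window 2 is shown. That window of 300 bases, which runs 50 bases past the start, also holds 1 CAGGTG match, in the part after the start. Motifs were searched on both strands of the 300-base windows: CAGGTG, the retinoic acid receptor half-site AGGTCA and the PU.1 site GAGGAAGT. Of 8584 tested genes with a window, 21.3% held CAGGTG, 15.3% AGGTCA and 3.76% GAGGAAGT. Among the 12 leading higher genes 10 had a window, of which 4 held CAGGTG (Siglech, Irf8, Camk1d and Tcf7), 1 AGGTCA (Tcf7) and 1 GAGGAAGT (Kmo). Among the 12 leading lower genes 11 had a window, of which 1 held CAGGTG, 2 AGGTCA (Myo5c and Nqo2) and 0 GAGGAAGT. A match describes the letters in the window and is not a binding site.

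The 12 leading higher genes were those with the smallest p among genes whose arrays did not overlap between the groups. Arrays did not overlap for 1000 tested genes (9.45%) that were higher and 163 (1.54%) that were lower; with array medians subtracted the counts were 414 (3.91%) and 500 (4.72%). Apart from Siglech, none of the 24 leading genes passed; their adjusted p lay between 0.262 and 0.604 (limma).

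Irf8, the transcription factor that dendritic cells and monocytes require, was 7.82, 8.54 and 7.70 on the mCG-PR arrays and 6.53, 6.24, 6.80 and 6.62 on the WT arrays (1.36 ± 0.29). Il7r, which carries the survival signal of early lymphocyte precursors, was 8.50, 8.35 and 8.24 against 6.49, 6.15, 7.78 and 6.87 (1.42 ± 0.30). WT replicate 3 was the highest control for Il7r, and without it Il7r passed (limma adjusted p = 0.00671, range over the alternatives 0.00671 to 1). Kmo, an enzyme of tryptophan breakdown, was 7.53, 8.0 and 7.67 against 6.10, 6.49, 7.07 and 6.12 (1.18 ± 0.23), and it too passed without WT replicate 3 (limma adjusted p = 0.0135, range 0.0135 to 1). Irf8 passed when only the compared arrays were fitted (limma adjusted p = 0.0479), only the KLS arrays (0.0433) or with array weights (0.0376), with a range of 0.0376 to 1. Without mCG-PR replicate 3 the differences were 1.54 for Irf8, 1.5 for Il7r and 1.22 for Kmo, each with a limma adjusted p of 0.717.

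Tcf7, a transcription factor of T cell and early lymphoid development, was 8.41, 8.39 and 8.27 against 7.26, 7.69, 7.90 and 7.20 (0.73 ± 0.18). Il6st, the shared signalling chain of interleukin 6 family receptors, was 8.32, 8.95 and 8.99 against a narrow WT range of 7.68 to 7.87 (0.84 ± 0.18). Cd93, a surface protein of early progenitors, was 9.73, 9.95 and 9.83 against 8.63 to 9.33 (0.73 ± 0.18), and Itgal, the alpha chain of the leukocyte integrin LFA-1, 7.31, 7.73 and 7.72 against 6.76 to 6.94 (0.63 ± 0.15). In all 4 genes the groups were separate, and the mCG-PR arrays of 13 weeks, given here as values of their own, were 8.49 and 8.25 for Tcf7, 8.33 and 8.63 for Il6st, 9.86 and 9.54 for Cd93 and 7.28 and 7.13 for Itgal.

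Fkbp5, a co-chaperone of the glucocorticoid receptor, was 7.93, 7.95 and 8.45 against 6.97 to 7.24 (0.93 ± 0.22), and 8.26 and 8.54 at 13 weeks. Camk1d, a calcium and calmodulin dependent kinase, was 7.16, 7.40 and 7.21 against 5.83 to 6.66 (0.89 ± 0.19). At 13 weeks Camk1d was 6.35 and 6.60, within the WT range; its difference from 6 weeks, -0.71 ± 0.23, did not pass (limma adjusted p = 0.779). With the mean in place of the median of its probe sets Camk1d differed by 0.56. The remaining leading higher genes were Gen1, a nuclease that resolves DNA junctions (0.95 ± 0.21), and Praf2, a small membrane protein (1.03 ± 0.23, or 0.63 with the mean of probe sets).

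**Figure D2:**
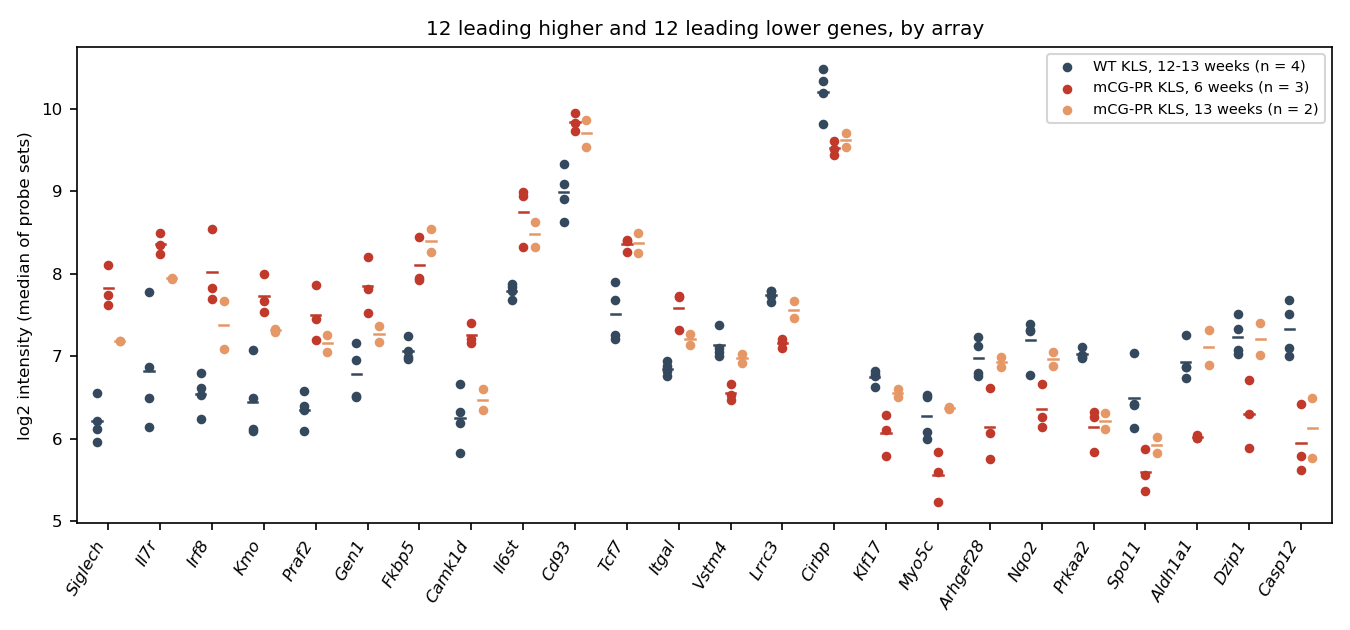
Log2 intensity (vertical axis, median of a gene's probe sets) of the 12 leading higher and 12 leading lower genes (horizontal axis, ordered by difference) on each array; dark points are WT KLS (n = 4), red mCG-PR KLS of 6 weeks (n = 3) and orange mCG-PR KLS of 13 weeks (n = 2), with group means as short lines. By the rule that chose them, red and dark points do not overlap in any gene; the orange points lie near the red ones for Tcf7 and Prkaa2 and near the dark ones for Aldh1a1 and Dzip1.

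Casp12, a caspase of the inflammatory group, was 5.79, 5.62 and 6.43 on the mCG-PR arrays and 7.51, 7.68, 7.11 and 7.01 on the WT arrays (-1.5 ± 0.29, limma adjusted p = 0.309). Of its 11 probe sets 9 had a lower mean, and on 2 the arrays did not overlap. The size rested on the summary: with the mean of probe sets Casp12 differed by -0.67, against -0.95 for Aldh1a1, and the median difference of single probe sets (unshifted) was -0.54 for Casp12 and -0.83 for Aldh1a1. At 13 weeks Casp12 was 5.77 and 6.50, below the WT arrays.

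Aldh1a1, which makes retinoic acid from retinaldehyde, was 6.05, 6.01 and 6.01 against 6.73, 6.87, 6.87 and 7.26 (-1.02 ± 0.18, adjusted p = 0.262). The 3 young mCG-PR arrays were almost identical and close to the threshold of log2 6.0 below which genes were not tested. In mCG-PR cells of 13 weeks Aldh1a1 was 7.32 and 6.90, in or above the WT range. The difference between 13 and 6 weeks was 1.16 ± 0.21, and it did not pass either (limma adjusted p = 0.683).

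Prkaa2, a catalytic subunit of the AMP-activated kinase, was 5.84, 6.27 and 6.33 against a WT range of 6.98 to 7.11 (-1.0 ± 0.25), and 6.11 and 6.31 at 13 weeks. Cirbp, an RNA-binding protein induced by cold, was 9.52, 9.44 and 9.60 against 10.49, 9.81, 10.19 and 10.33 (-0.80 ± 0.18), and 9.53 and 9.70 at 13 weeks. Spo11, the nuclease of meiotic recombination, was lower by 1.01 (-1.01 ± 0.23). All 15 of its probe sets had a lower mean, and on 2 the arrays did not overlap. Dzip1 (-1.05 ± 0.26), a protein of cilium formation, was 7.41 and 7.01 at 13 weeks, against 6.71, 6.30 and 5.89 at 6 weeks and 7.02 to 7.52 in WT cells. The exchange factor gene Arhgef28 (-0.94 ± 0.21) and the myosin gene Myo5c (-0.83 ± 0.21) were also in the WT range at 13 weeks, at 6.88 and 7.00 and at 6.36 and 6.39. The remaining 4 were Klf17 (-0.80 ± 0.15), Nqo2 (-0.95 ± 0.22), Vstm4 (-0.69 ± 0.15) and Lrrc3 (-0.69 ± 0.14), with WT means of 6.75, 7.20, 7.13 and 7.74. Their single probe sets bore these values out only in part. In Nqo2, 4 of 7 probe sets had a lower mean and 0 had arrays that did not overlap, in Klf17 5 of 7 and 1, in Vstm4 7 of 10 and 1, and in Lrrc3 4 of 6 and 2, and the median probe set differences (unshifted) were -0.04, -0.02, -0.17 and -0.14. With the mean of probe sets the 4 genes differed by -0.35 (Nqo2), -0.27 (Klf17), -0.29 (Vstm4) and -0.29 (Lrrc3), and Cirbp by -0.38. Of the 24 leading genes 22 were tested with that summary, all but Spo11 and Myo5c, and 8 of the 22 moved by over 1.5 times.

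**Figure D3:**
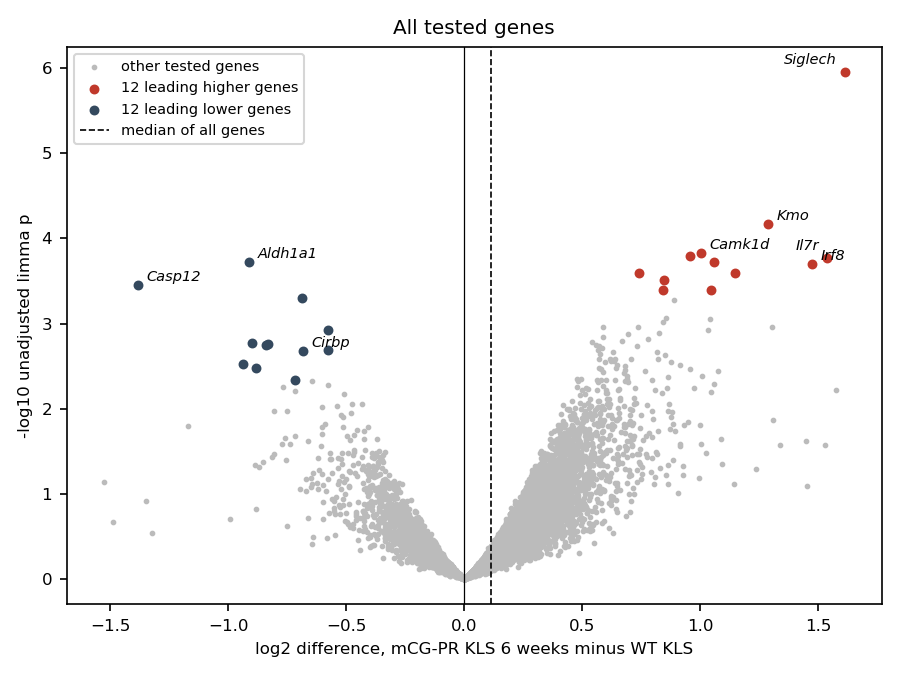
Log2 difference, mCG-PR KLS of 6 weeks minus WT KLS and not shifted (horizontal axis), against -log10 of the unadjusted limma p (vertical axis) for the 10584 tested genes; red and dark points are the 12 leading higher and lower genes, and the dashed line is the median of all genes at 0.114. Siglech lies above every other gene.

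No gene passed between mCG-PR KLS cells of 13 and 6 weeks: limma called 0 of 10584 genes (0%), with 669 (6.32%) at an unadjusted p under 0.05. With the KLS arrays alone 1 gene passed, and with array weights 1. On simulated arrays with the same spread the test for young mCG-PR against WT recovered 63% of changes of 1 log2 and 96% of changes of 2 log2. In that run genes varied independently, without a shift between arrays, and 164 genes were called. With 1 call between young mCG-PR and WT in the data, the adjusted threshold was stricter. These percentages therefore do not carry over to the real arrays.

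Genes were also counted by lists of lineage and function. For each list the tested members are counted above and below the shift of all genes, where 50% of tested genes lie on either side, and by whether the 3 mCG-PR arrays lay wholly above or below the 4 WT arrays, against the 9.45% and 1.54% of all tested genes given above. The per-array values are the mean log2 level of the list above that array's own median. Only 1 list member, Siglech, passed the gene test, and the lists have no test of their own.

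**Figure D4:**
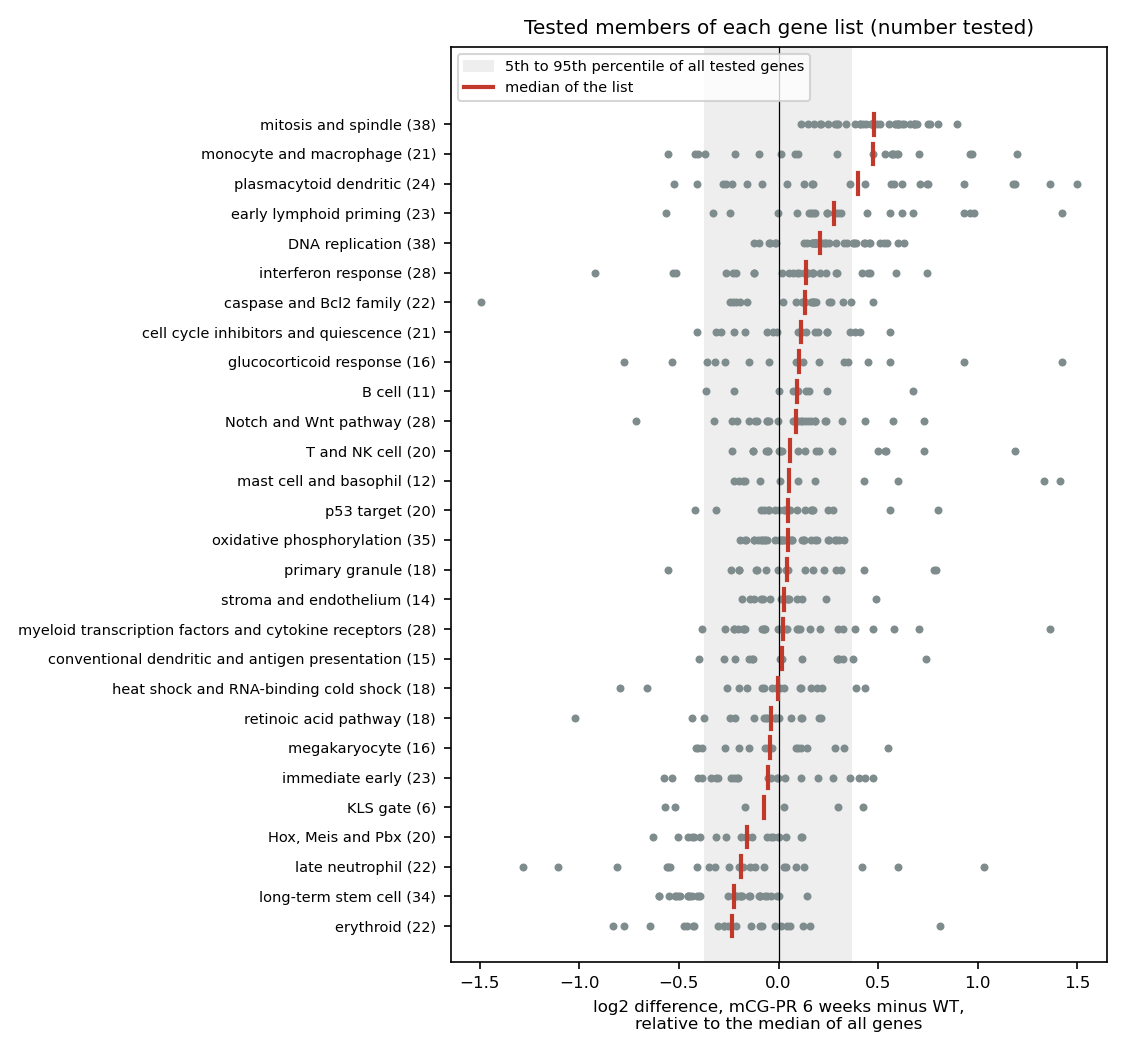
Log2 difference of each tested member (grey points, horizontal axis, relative to the median of all genes) for 28 gene lists, with the list median as a red bar and the number tested in brackets; the grey band is the 5th to 95th percentile of all tested genes, -0.37 to 0.36. All 38 mitosis and spindle genes lie to the right of 0, and 32 of 34 stem cell genes to the left.

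Long-term stem cell genes were on balance lower in the young mCG-PR cells. Of 34 tested, 32 lay below the shift and 2 above, with a median of -0.22; the single genes were small differences, between -0.60 and 0.14. For 2 genes (5.88%) the mCG-PR arrays lay wholly below WT, and for 4 after array medians were subtracted (11.8%, against 4.72% of all genes). The list mean was 0.30, 0.18 and 0.26 on the mCG-PR arrays and 0.54, 0.51, 0.45 and 0.62 on the WT arrays, which did not overlap. At 13 weeks it was 0.33 and 0.30.

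By role, the transcription factors of stem cell self-renewal Hlf (-0.60 ± 0.26) and Meis1 (-0.45 ± 0.18) did not pass, and the groups overlapped in both: Hlf was 10.34, 9.99 and 10.83 against 11.08, 10.38, 10.73 and 11.30. Mllt3, a chromatin reader that maintains stem cells, was 9.14, 9.68 and 9.27 against 9.57 to 9.92 (-0.50 ± 0.17). Pdzk1ip1, a membrane protein transcribed in stem cells, was 6.97, 7.07 and 7.03 against 7.30, 7.34, 7.54 and 7.64, wholly below (-0.55 ± 0.14). Hox, Meis and Pbx genes, the homeobox factors of primitive cells, had 16 of 20 members below the shift and a median of -0.16, and list means of -0.15, -0.34 and -0.30 against 0.05, -0.09, -0.13 and -0.05. Hoxb7 (-0.63 ± 0.30) and Hoxb4 (-0.50 ± 0.31) were their lowest named members, both with overlapping arrays.

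Genes of early lymphoid priming were mostly higher. Of 23 tested, 19 lay above the shift, with a median of 0.28, and 8 (34.8%) had all mCG-PR arrays above all WT arrays, or 3 (13.0%) with array medians subtracted against 3.91% of all genes. Besides Il7r these included Ly6d, a surface marker of lymphoid precursors, at 8.43, 8.31 and 8.10 against 6.96, 7.01, 7.74 and 7.23 (0.93 ± 0.32), and Blnk, an adaptor of the B cell receptor, at 7.47, 7.63 and 7.09 against 6.43 to 7.05 (0.62 ± 0.19). Ly86, a partner of a Toll-like receptor homologue on lymphoid and myeloid cells, was 0.96 ± 0.30 higher with overlapping arrays. Flt3, the receptor that marks multipotent progenitors with lymphoid potential, was 10.66, 10.90 and 10.36 against 10.11 to 10.31 (0.30 ± 0.16). The 4 members below the shift included Ltb (-0.56), Tcf3 (-0.33) and Ccr7 (-0.24). The lymphoid list was also chosen with earlier results of these data known. It shares Ly6d, Runx2 and Blnk with the plasmacytoid dendritic list, and the higher value of Blnk was known when that list was written.

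The lymphoid list mean was 1.32, 1.27 and 1.01 on the mCG-PR arrays and 0.71, 0.81, 1.11 and 0.85 on the WT arrays. WT replicate 3 was the highest control and mCG-PR replicate 3 the lowest mCG-PR array, and these 2 arrays overlapped. Genes of committed B cells had a median of 0.09 over 11 tested, and T and NK cell genes of 0.06 over 20. Among the latter Gzma, a cytotoxic granule protease, was 7.02, 7.47 and 7.05 against 5.70 to 7.01 (0.54 ± 0.28), and Klrd1, a receptor of NK and plasmacytoid dendritic cells, differed by 1.19 ± 0.31 with overlapping arrays. Ighm, the immunoglobulin heavy chain, differed by 0.68 ± 0.38.

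Plasmacytoid dendritic cell genes had 17 of 24 tested members above the shift and a median of 0.40. For 10 (41.7%) the mCG-PR arrays lay wholly above WT and for 1 wholly below, or 7 (29.2%) and 1 with array medians subtracted. The list was written with the higher values of Siglech, Kmo, Irf8, Klrd1 and Blnk known. Without these 5 genes, 12 of 19 lay above the shift, the median was 0.17, and 6 were wholly above. Bst2, a surface marker of plasmacytoid dendritic cells that interferon also induces, was 8.33, 8.87 and 8.23 against 7.34 to 7.78 (0.74 ± 0.26). The 7 members below the shift included Lair1 (-0.53), Zfp521 (-0.41) and Irf7 (-0.26). The mean of these 19 genes was 0.34, 0.43 and 0.09 on the mCG-PR arrays and -0.01, 0.15, 0.18 and 0.11 on the WT arrays, so the groups overlapped, with mCG-PR replicate 3 below 3 of the 4 controls.

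Conventional dendritic and antigen presentation genes went both ways: 9 of 15 tested lay above the shift and 6 below, from -0.40 to 0.74 with a median of 0.02, and 2 (13.3%) were wholly above WT. The highest, Clec9a, a receptor on dendritic cells that recognises dead cells, was 7.04, 6.96 and 7.37 against 5.95 to 6.72 (0.74 ± 0.20), and 6.63 and 6.20 at 13 weeks. Monocyte and macrophage genes had 15 of 21 above the shift and a median of 0.48. Of them 5 (23.8%) were wholly above WT, or 3 (14.3%) with array medians subtracted. The 5 included Zeb2, a transcription factor of myeloid and dendritic cells (8.44, 8.40 and 8.67 against 7.73 to 7.99, 0.58 ± 0.17), and Klf4, a monocyte factor (7.76, 7.81 and 7.60 against 6.95 to 7.26, 0.48 ± 0.15). Csf1r, the receptor of macrophage colony-stimulating factor (0.71 ± 0.22), and Cx3cr1, a chemokine receptor (0.53 ± 0.18), had overlapping arrays. The 6 members below the shift included Lyz2 (-0.55), Ly6c2 (-0.42), Klf2 (-0.40) and C1qb (-0.37). The monocyte median moved with the processing: it was 0.23 without mCG-PR replicate 2, which had the highest list mean of 0.65 against 0.33 and 0.15, 0.23 with the mean of probe sets, and 0.17 without the filter on low genes.

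**Figure D5:**
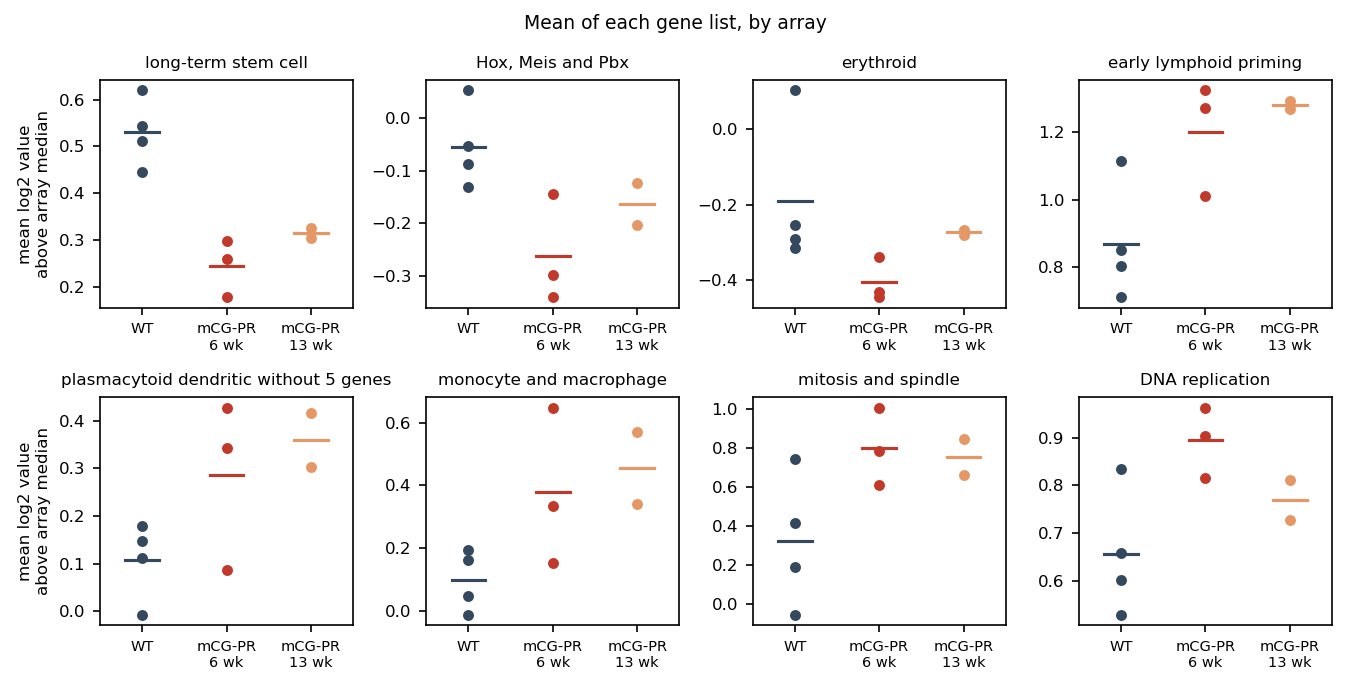
Mean log2 level of 8 gene lists above the array's own median (vertical axes, each with its own range) by group (horizontal axes): WT KLS, mCG-PR KLS of 6 weeks and mCG-PR KLS of 13 weeks; points are arrays and lines group means. The plasmacytoid dendritic list is shown without its 5 genes known to be high. The 6-week and WT arrays do not overlap for stem cell, Hox and erythroid genes, and overlap for lymphoid, plasmacytoid dendritic, monocyte, mitosis and DNA replication genes.

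Genes of cell division were higher in every member measured. All 38 mitosis and spindle genes lay above the shift, with differences of 0.11 to 0.89 and a median of 0.48. Arrays did not overlap for 8 of them (21.1%), or 5 (13.2%) with array medians subtracted. Foxm1, the transcription factor of the mitotic programme, was 7.52, 7.93 and 7.54 against 6.82, 6.10, 6.85 and 6.85 (0.89 ± 0.29). Bub1b, a spindle checkpoint kinase, was 8.05, 8.49 and 8.24 against 7.22, 6.94, 8.08 and 7.30 (0.76 ± 0.24), the condensin subunit gene Ncaph differed by 0.70 ± 0.25 and Prc1, which bundles the midzone of the spindle, by 0.47 ± 0.20.

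The controls themselves spread widely in this list. Its mean was 0.61, 1.01 and 0.79 on the mCG-PR arrays and 0.19, -0.05, 0.75 and 0.42 on the WT arrays, so the 12-week WT replicates 3 and 4 were higher than the 13-week replicates 1 and 2, and WT replicate 3 lay above mCG-PR replicate 1. The median over the 38 genes was 0.21 against the 12-week controls alone and 0.74 against the 13-week controls alone. At 13 weeks mCG-PR cells had list means of 0.66 and 0.85.

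DNA replication genes had 32 of 38 above the shift and a median of 0.21, and 10 (26.3%) had mCG-PR arrays wholly above WT, or 7 (18.4%) with array medians subtracted. Pole, the catalytic subunit of polymerase epsilon, was 7.54, 7.57 and 7.92 against 7.00 to 7.18 (0.45 ± 0.15). The helicase subunit Mcm6 was 10.01, 10.25 and 10.18 against 9.26 to 9.84 (0.51 ± 0.21), and the GINS complex genes Gins3 and Gins1 differed by 0.54 ± 0.21 and 0.53 ± 0.23. Gins1 was 7.69, 7.72 and 7.61 at 6 weeks and 6.25 and 7.01 at 13 weeks, a difference of -0.97 ± 0.27 that did not pass (limma adjusted p = 0.732). Among cell cycle regulators the list median was 0.11 over 21 genes; Cdkn1a, an inhibitor of cyclin-dependent kinases, differed by 0.56 ± 0.28 and the cyclin gene Ccnd2 by 0.38 ± 0.23.

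Granule genes, the class in which the Ctsg locus itself falls, did not shift as a group. Primary granule genes had 10 of 18 above the shift and a median of 0.04, with 0 wholly above or below WT. Mpo, the myeloperoxidase of these granules, was 10.81, 12.00 and 11.22 against 10.32, 10.17, 11.12 and 10.15 (0.79 ± 0.51), and Cst7, a cathepsin inhibitor, 0.78 ± 0.33 higher. Replicate 2 of mCG-PR was the highest of the 7 arrays for Mpo, Cst7 and Ctsg. Its primary granule mean was 2.24, against 1.58 to 1.96 on the other 6 arrays.

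That array was also the highest for mast cell and basophil genes, with a list mean of 0.74 against 0.07 to 0.44 on the other 6. Mcpt8, a basophil protease, was 7.36, 9.69 and 8.09 against 6.61 to 6.97 (1.41 ± 0.61), and Cpa3, the carboxypeptidase of mast cells and their progenitors, 6.98, 9.61 and 7.14 against 6.05 to 7.07 (1.33 ± 0.57). Without mCG-PR replicate 2 the differences were 0.78 for Mcpt8, 0.50 for Cpa3, 0.34 for Hdc, 0.48 for Mpo and 0.38 for Cst7. The list median was 0.05 over 12 tested genes. Hdc, the enzyme that makes histamine, was 5.95, 7.21 and 6.78 against 5.47 to 6.22 (0.60 ± 0.26). The part of such cells in the higher granule values of replicate 2 was not tested.

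Late neutrophil genes had 15 of 22 below the shift and a median of -0.19, and 2 (9.09%) lay wholly below WT. Members ran from -1.28 to 1.03, with Mmp8 the highest of the 7 above the shift. The list mean was 0.19, 0.76 and 0.35 on the mCG-PR arrays and 0.55, 0.81, 0.62 and 0.62 on the WT arrays. The groups therefore overlapped. S100a8, a calcium-binding protein of neutrophils and monocytes, was 10.30, 11.46 and 10.71 against 12.07, 12.21, 11.65 and 12.05 (-1.28 ± 0.42, limma adjusted p = 0.707), and 10.47 and 10.60 at 13 weeks. Fpr2, a formyl peptide receptor, was also wholly below (-0.81 ± 0.38). Chil3, a chitinase-like protein of neutrophils and macrophages, was 8.17 and 9.20 on WT replicates 1 and 2 and 6.31 to 6.60 on the other 5 arrays, so its difference of -1.11 ± 0.73 was set by 2 controls and was 0.045 against the 12-week controls alone.

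Erythroid genes had 16 of 22 below the shift and a median of -0.23, with 3 (13.6%) wholly below WT and 2 wholly above. Car2, a carbonic anhydrase of red cell precursors and stem cells, was 10.04, 9.69 and 10.11 against 10.41, 10.19, 10.98 and 11.05 (-0.83 ± 0.22), and Hemgn, a nuclear protein of erythroid progenitors, 7.73, 7.92 and 7.35 against 7.93 to 8.78 (-0.65 ± 0.34). The erythroid mean was -0.34, -0.45 and -0.43 against -0.29, -0.32, 0.10 and -0.26, with WT replicate 3 alone above 0. Megakaryocyte genes had a median of -0.04 over 16 tested, with Cd9 at -0.38 ± 0.27 and the platelet chemokine gene Ppbp at -0.41 ± 0.32. Genes of stroma and endothelium had a median of 0.03 over 14 and list means of -0.47 to -0.40 against -0.52 to -0.40.

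Signalling and stress lists had medians nearer to that of all genes. Interferon response genes had 20 of 28 above the shift and 8 below, from -0.92 to 0.74, with a median of 0.14. Wholly above WT were 6 (21.4%), or 3 (10.7%) with array medians subtracted, and 1 (3.57%) was wholly below either way. The 6 include Ifi27 (0.59 ± 0.19), the antiviral GTPase gene Irgm1 (0.45 ± 0.16) and Oasl1 (0.42 ± 0.17). Below the shift were, among others, Iigp1 (-0.92), Gbp2 (-0.53) and Ifit2 (-0.51). Irgm1 was 7.85, 8.05 and 8.11 at 6 weeks, 7.25 to 7.68 in WT cells and 7.19 and 7.13 at 13 weeks. The interferon list mean was 0.65, 0.65 and 0.43 against 0.46, 0.58, 0.49 and 0.54, with mCG-PR replicate 3 below every control.

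Notch and Wnt pathway genes had a median of 0.09 over 28 tested, with the Wnt receptor gene Fzd7 (6.79, 6.84 and 7.13 against 6.06 to 6.68, 0.57 ± 0.20) and the growth factor gene Myc (0.43 ± 0.21) beside Tcf7. Glucocorticoid response genes went both ways, 9 of 16 above the shift and 7 below, with a median of 0.10 and members from -0.78 to 1.42. Named in the direction of the median, Ddit4 differed by 0.45 ± 0.19 and the repressor gene Bcl6 by 0.35 ± 0.16, beside Fkbp5. In the caspase and Bcl2 family, 16 of 22 genes lay above the shift, with a median of 0.13; the survival gene Bcl2 differed by 0.48 ± 0.21 and the death effectors Bak1 by 0.36 ± 0.17 and Bmf by 0.25 ± 0.14, while Casp12 was the lowest member. In that family 4 genes were wholly above WT, and 0 with array medians subtracted. Among p53 targets the median was 0.05 over 20, and Plk2, a polo-like kinase, was 0.80 ± 0.25 higher with overlapping arrays. Oxidative phosphorylation genes had a median of 0.05 over 35, with 2 (5.71%, below the 9.45% of all genes) wholly above WT, Sdhc (0.33 ± 0.17) and Sdha (0.25 ± 0.15), subunits of succinate dehydrogenase; with array medians subtracted 0 were wholly above and 1 wholly below. Retinoic acid pathway genes had a median of -0.04 over 18, with Aldh1a1 the lowest. Myeloid transcription factors and cytokine receptors, heat shock genes and immediate early genes had medians of 0.02, -0.00 and -0.05.

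Without mCG-PR replicate 3, the array with low Y-linked genes, arrays did not overlap for 14.4% of tested genes upwards and 3.47% downwards. The counts were then 13 of 23 lymphoid, 12 of 24 plasmacytoid dendritic, 8 of 21 monocyte, 8 of 38 mitosis and 11 of 38 replication genes wholly above WT, and 7 of 34 stem cell genes wholly below. Of the lists with smaller medians, p53 targets went from 0 to 5 of 20 wholly above and interferon genes from 6 to 9 of 28, while Hox, Meis and Pbx genes went from 0 to 3 of 20 wholly below and erythroid genes from 3 to 5 of 22.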

How the data were processed

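RNA of sorted bone marrow cells was amplified from 20 ng per array and hybridised to Affymetrix Mouse Exon 1.0 ST arrays, per the labels' protocols. The authors deposited 1 intensity per probe set and array on a linear scale (2.339 to 21748.2), for 229581 probe sets and 13 arrays; RMA and mm9 appear in the submitters' processing notes, with version and settings not given in the sources used here. GEO's platform annotation gave 1 gene for 208397 probe sets, which were used, several for 3965 and none for 17219. Values were log2-transformed and summarised as the median per gene with at least 3 probe sets (15121 genes, median 11 probe sets); 13158 symbols were current in RefSeq, 1910 were updated through a synonym, and 49 ambiguous and 4 unlisted symbols were kept. Genes above the 30th percentile of mean value (log2 6.0) were tested, 10584 in all. No scaling between arrays was added, and no genome coordinates of the files were used.

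The test was limma's moderated, two-sided one (version 3.58.1, R 4.3.3), with all 13 arrays and 5 groups in 1 fit and Benjamini-Hochberg adjustment over all tested genes at 0.05. The number of arrays limits the precision. The simulated run had 5 false calls among 164. Named genes were those that passed, the 12 with the smallest p per direction among genes whose arrays did not overlap (predicted genes left out), the locus genes Ctsg, Pml and Rara, for each list at most 4 tested members (smallest p in the direction of its median), and Y-linked genes as a check. Casp12 is also given in its list, as are some members below the shift in the lymphoid, monocyte, plasmacytoid dendritic and interferon lists. Mmp8 is also given in the late neutrophil list. Of 798 entries in 29 lists, the Y-linked and gate lists included, 613 were tested. The comparison, the members and the lists were chosen with earlier results of these data known.

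The titles number the replicates in both groups. Deviations of same-numbered arrays from their group means correlated at -0.04, 0.01 and -0.015 across genes, so the numbers were not taken to pair the arrays. Alternatives were other filters, the mean of probe sets, quantile normalisation, array medians subtracted, the replicate block, fewer arrays in the fit, array weights, controls of 1 age, and each array left out.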

Additional observations from a re-analysis of the deposited data

Results flagged for a closer look

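In the 4 WT arrays, 7 values had an array far from the other 3, by a gap past Dixon's critical value; chance flags about 1 in 20 groups, and 114 were examined. The gap was 0.965 of the range for Foxm1 (WT replicate 2 low, 6.10), 0.93 for Fzd7 (replicate 3 high, 6.68), 0.895 for Cdkn1a (replicate 3 low, 6.30) and 0.874 for Nqo2 (replicate 4 low, 6.78). It was 0.838 for Bmf and 0.831 for Mpo, both with replicate 3 high, and 0.855 for the erythroid list mean, again with replicate 3 high.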

How the results depend on the processing

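The number of genes called between young mCG-PR and WT KLS cells was 1, and it was 1 without the low filter, at the 50th percentile, with array medians subtracted and with 13-week controls alone, where the call was Il7r in place of Siglech. It was 0 with the mean of probe sets, quantile normalisation and 12-week controls alone, 2 with the compared groups alone, 4 with the KLS arrays alone and 4 with array weights; leaving out arrays gave 0 to 3, with 3 without WT replicate 3. Blocking on the replicate number left 0 calls (Siglech adjusted p = 0.0855, limma), and same-numbered arrays did not deviate together; for the older against the younger mCG-PR cells the replicate block gave 0, as without it. That age comparison gave 1 call with KLS arrays alone and 1 with array weights, and 0 with each array left out. The monocyte and macrophage median of 0.48 was 0.17 without the filter, 0.23 with the mean of probe sets and 0.23 to 0.51 with single arrays left out. The stem cell median of -0.22 was -0.29 to -0.21 with single arrays left out. The plasmacytoid dendritic median of 0.40 became 0.17 without the 5 genes known to be high, a choice made after the data were seen. Signs of genes that did not pass turned in 5 of 1511 values: Ctsg was -0.14 with 12-week controls and -0.18 to 0.43 with single arrays left out, Chil3 0.045 with 12-week controls, and without single arrays Eif2s3y -2.30 to 0.11 and Kdm5d -1.56 to 0.059, the upper ends without mCG-PR replicate 3. The cause of these moves was not tested. Differences near the standard error of single genes, 0.202 at the median, are below what 7 arrays resolve.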

Other observations

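WT replicate 3 was the control closest to the mCG-PR arrays in several lists: it had the highest WT mean for lymphoid (1.11), mitosis (0.75) and DNA replication genes (0.83), and the lowest for stem cell (0.45) and Hox genes (-0.13). WT replicates 1 and 2, which are the 13-week mice and also stand apart by their description numbers, had higher means than replicates 3 and 4 for myeloid transcription factors and cytokine receptors, 0.59 and 0.64 against 0.41 and 0.41.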
